A study of Mus musculus with 12 samples.

Results

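Cells make cholesterol and fatty acids from acetyl-CoA, and the enzymes of both routes are controlled together by the sterol regulatory element-binding proteins, or SREBPs. A set of 33 genes of these routes was examined in mouse cardiac fibroblasts by RNA-seq. They were listed by name for their roles in these routes, with earlier results of these data known, out of 35523 genes counted, and all 33 passed the count minimum that 18028 genes passed. They cover 8 enzymes from acetyl-CoA to the isoprenoids, 11 enzymes from squalene formation to cholesterol, 5 genes of the SREBP machinery, 6 enzymes of fatty acid synthesis and 3 genes of sterol transport.

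The fibroblasts came from hearts of adult female and male wild-type C57BL/6J mice and were grown in culture. They were transfected with a scramble siRNA or an siRNA against histone H1.0, a linker histone that binds nucleosomes and the DNA between them. All cells were then held in medium with 0.1% serum for 24 h before TGF-β (10 ng per ml), a cytokine that activates fibroblasts, or vehicle. Each of the 4 groups, which are scramble vehicle, scramble TGF-β, knockdown vehicle and knockdown TGF-β, had 3 biological replicates. How long the TGF-β lasted before RNA was taken, and whether a replicate is 1 animal or a pool, are not given in the labels. Values below are CPM, the read count relative to the library total after TMM scaling, unless TPM is named, in the order of replicates 1, 2 and 3. A gene was called, and is said to have risen or fallen, at an adjusted p under 0.01 in edgeR's quasi-likelihood test with Benjamini-Hochberg adjustment over the 18028 genes, and fold changes are on the log2 scale with their standard error (SE).

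Cholesterol synthesis starts when a thiolase and then HMG-CoA synthase join acetyl-CoA units. It runs through mevalonate and farnesyl pyrophosphate to squalene, and ends with the demethylation and reduction of the sterol ring. When sterols in the endoplasmic reticulum are plentiful, INSIG proteins hold the complex of SREBP with its escort SCAP in place. When sterols are scarce the complex moves to the Golgi, SREBP is cut, and its free part enters the nucleus and switches on the genes of sterol and fatty acid synthesis, including Insig1 itself. LXR receptors sense oxysterols and switch on the cholesterol exporters Abca1 and Abcg1.

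H1f0, the gene of histone H1.0, had 93.7, 113 and 98.6 CPM in the scramble vehicle libraries, 105, 109 and 104 with TGF-β, 36.5, 40.0 and 22.4 in the knockdown vehicle libraries and 31.4, 32.6 and 19 in those with TGF-β. Its level in every knockdown library lay below that in every scramble library. It fell with the siRNA by 1.63 on the log2 scale in vehicle cells (SE 0.223, adjusted p = 0.000195 by edgeR) and by 1.94 with TGF-β (SE 0.224, adjusted p = 5.81e-05). Library totals ran from 19.9 M to 36.3 M estimated counts with a median of 24.2 M, and the 3 knockdown TGF-β libraries were all at 36.2 M or 36.3 M. The 10 fibroblast genes used as markers summed to between 30469.5 and 39909.5 CPM in every library, and the collagens Col1a1, Col1a2 and Col3a1 carried most of that sum. Of the 10, the siRNA lowered 2 and raised 2 in vehicle cells (11.2% and 13.4% of all genes tested). Under TGF-β it lowered 4 and raised 1 (11.3% and 13.0%). Thy1 was at 21.5 to 82.9 CPM in scramble and 4.65 to 10.6 CPM in knockdown libraries, and Tcf21 ranged from 388 CPM in a scramble vehicle library to 36.0 CPM in a knockdown TGF-β library.

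One library stood apart for the lipid genes. In scramble vehicle replicate 3, 30 of the 33 genes were higher than in both other replicates of its group, and 25 exceeded the mean of those replicates by more than 1.5 times. The median ratio over the 33 genes was 1.86, from 0.863 for Scap to 2.87 for Scd1. Of the 13064 genes with a mean of at least 1 CPM, 4.32% exceeded the same 1.5-fold mark in that library, and their median ratio was 0.992. Knockdown vehicle replicate 3 was also the highest of its group for 28 of the 33 genes, with a median ratio of 1.35. In both TGF-β groups it was replicate 1 that was highest for most of the genes, 29 of 33 in scramble and 24 of 33 in knockdown cells, with median ratios of 1.17 and 1.13. Over the 13064 genes the median ratios were 1.02 in knockdown vehicle replicate 3 and 1.01 in replicate 1 of both TGF-β groups. The share of all genes for which a library was the highest of its group was not counted. The medians, the counts of calls and the fold changes of the called genes that rest on the scramble vehicle group are therefore also given without its replicate 3.

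In vehicle cells, H1.0 siRNA raised 16 of the 33 genes and lowered 2, where 13.4% of all genes tested were called higher and 11.2% lower. TGF-β raised 8 and lowered 1 in scramble cells, where 10.5% of all genes were called higher and 7.94% lower. In knockdown cells TGF-β raised none of the 33 and lowered 1, where 9.14% of all genes were called higher and 6.6% lower. Of the 33, 3 had a positive TGF-β fold change there at an unadjusted p under 0.05 in edgeR's test (Cyp51, Scd2 and Abcg1, named after their values were seen), where 20.2% of all genes did, and DESeq2 also called none higher. Without scramble vehicle replicate 3 edgeR called 2 of the 33 higher in this comparison, Cyp51 and Scd2, where 9.35% of all genes were. Between the siRNAs under TGF-β, 4 genes were higher and 2 lower in knockdown cells, where 13.0% of all genes were called higher and 11.3% lower. At least 1 call was made for 22 of the 33 genes. In bulk RNA a change in the RNA of each cell and a change in the share of cells that express a gene cannot be told apart.

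**Figure D1:**
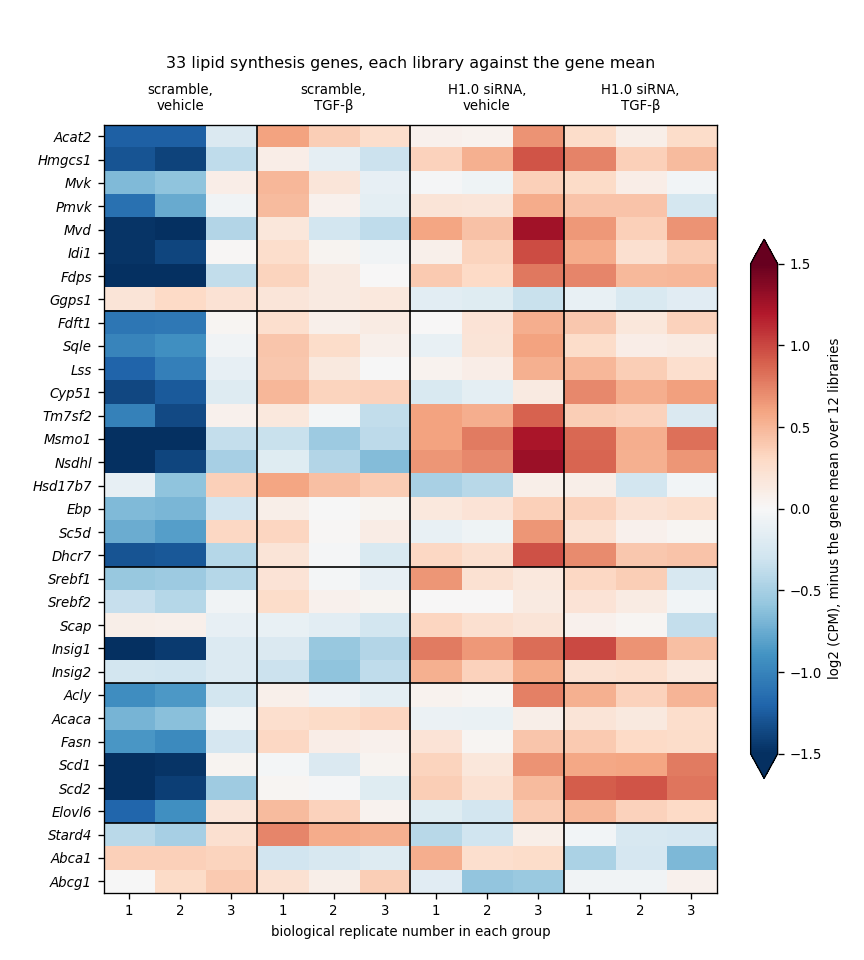
Each square is 1 gene in 1 library, colored by the log2 of its CPM minus the gene's mean over the 12 libraries, with lines between the 4 groups and the 5 roles. Scramble vehicle replicates 1 and 2 are the lowest libraries for most genes, and scramble vehicle replicate 3 is higher than both for 30 of the 33.

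The median log2 fold change over the 33 genes was 0.88 for the siRNA in vehicle cells and 0.72 for TGF-β in scramble cells, beside medians of 0.00 and -0.01 over all genes tested. It was 0.16 for the siRNA under TGF-β and 0.01 for TGF-β in knockdown cells, beside 0.04 and -0.01 over all genes. With scramble vehicle replicate 3 left out the medians over the 33 genes were 1.22 for the siRNA in vehicle cells and 1.07 for TGF-β in scramble cells. The first pair of comparisons shares the scramble vehicle libraries, so a low or a high value there moves both.

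**Figure D2:**
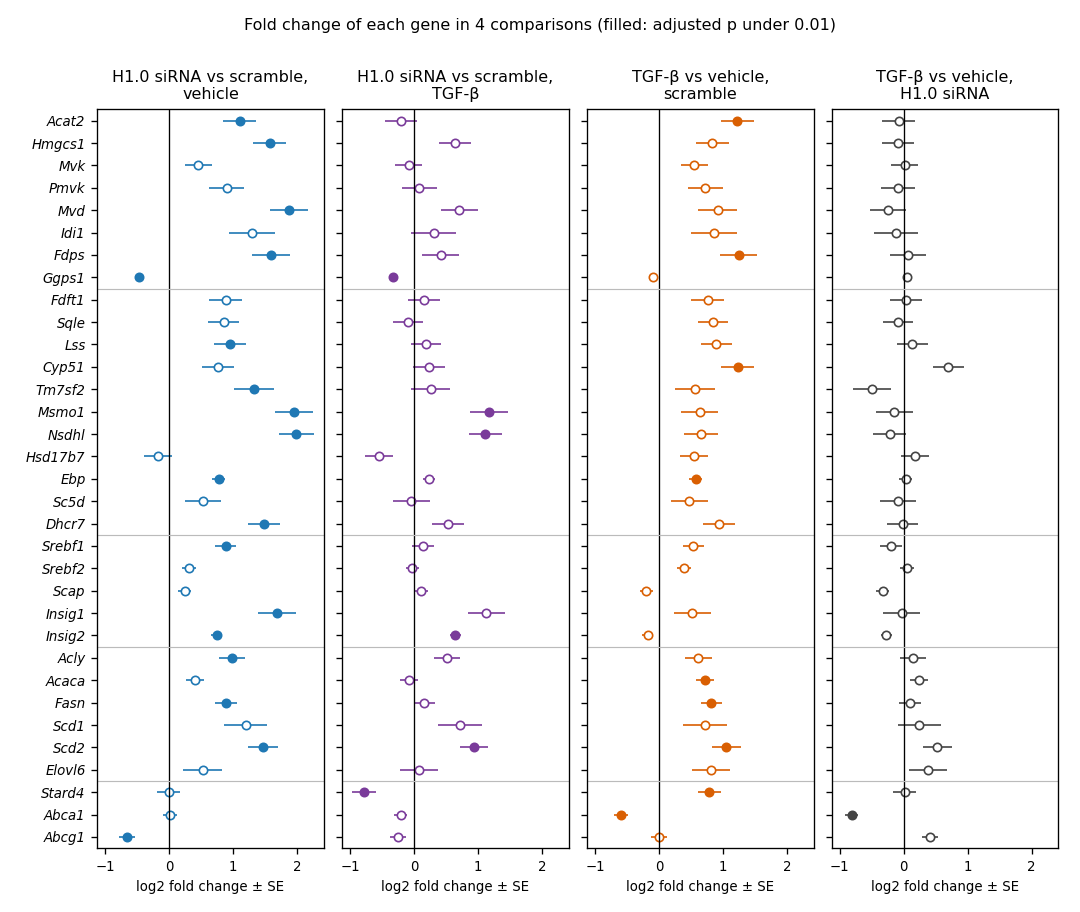
Log2 fold change of each gene (horizontal axis) in the 4 comparisons, with bars of 1 SE and filled points for genes called at an adjusted p under 0.01. In vehicle cells 29 of 33 points for the siRNA lie above 0, and in knockdown cells the points for TGF-β lie on both sides of 0, 17 above and 16 below. Leaving out 1 library moved that split, to 28 above and 5 below without knockdown vehicle replicate 3 and to 11 above and 22 below without knockdown TGF-β replicate 1.

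The genes that the siRNA raised most were Nsdhl and Msmo1, which encode the enzymes that remove the C4 methyl groups of the sterol ring. Msmo1, the C4 methyl oxidase, had 42.4, 39.7 and 96.9 CPM in the scramble vehicle libraries, 98.5, 85.3 and 94.6 with TGF-β, 189, 214 and 291 in the knockdown vehicle libraries and 226, 181 and 220.3 in those with TGF-β. Every knockdown library was well above every scramble library, and the lowest of them, 181 CPM, was above the highest scramble library, 98.5 CPM. Nsdhl, the C4 decarboxylating dehydrogenase, had 18.8, 21.8 and 40.1 CPM in the scramble vehicle libraries, 49.6, 41.5 and 35.8 with TGF-β, 89.3, 93.4 and 137 in the knockdown vehicle libraries and 103, 81.9 and 89.3 in those with TGF-β, again with no overlap between siRNA and scramble libraries. In vehicle cells Msmo1 rose by 1.96 (SE 0.299, adjusted p = 0.000413) and Nsdhl by 1.99 (SE 0.268, adjusted p = 0.000175) in edgeR's quasi-likelihood test. Under TGF-β the rises were 1.17 (SE 0.292, adjusted p = 0.00846) and 1.11 (SE 0.26, adjusted p = 0.00592). The calls in vehicle cells held in all 19 alternative analyses. Under TGF-β both calls were lost without any 1 of the 6 TGF-β libraries, that of Msmo1 also without knockdown vehicle replicate 1 or 2 or with RLE size factors, and that of Nsdhl with an offset for transcript length. Adjusted p then reached at most 0.035 for Msmo1 and 0.0266 for Nsdhl.

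The DNA just before the RefSeq start of some of these genes is shown here. SREBPs act at promoters together with NF-Y, a factor that binds the letters CCAAT. RefSeq windows on GRCm38.p6 were at hand for 26 of the 33 genes, in 34 windows of which the 250 bases before the start were read. The 7 genes with no window were Fdps, Fdft1, Sqle, Scd1, Scd2, Stard4 and Abcg1. CCAAT was found on either strand in 21 of the 34 windows (61.8%), from 20 genes, against 33.8% of 32851 windows of the same length over all genes. The E-box CACGTG was in 6 windows (17.6%, against 6.02% of all), and CACNCCAC, whose letters occur within known sterol regulatory elements, was in 3 (8.82%, against 5.29%). The 3 genes with CACNCCAC were Acat2, Hmgcs1 and Insig1. A match is a run of letters and not a measured binding site. Of the windows that follow, Msmo1, Nsdhl, Insig1 and Hmgcs1 belong to genes with a large rise after the siRNA, and Ggps1 to an enzyme of the same route that fell. Each is read 5′ to 3′ toward the start on the strand of the gene, with matches to these motifs on either strand in capitals.
Msmo1: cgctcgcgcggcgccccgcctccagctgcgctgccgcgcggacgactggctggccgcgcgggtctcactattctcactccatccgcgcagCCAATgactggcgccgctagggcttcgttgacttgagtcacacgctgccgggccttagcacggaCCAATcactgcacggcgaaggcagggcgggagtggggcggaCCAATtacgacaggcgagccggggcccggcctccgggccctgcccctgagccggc
Nsdhl: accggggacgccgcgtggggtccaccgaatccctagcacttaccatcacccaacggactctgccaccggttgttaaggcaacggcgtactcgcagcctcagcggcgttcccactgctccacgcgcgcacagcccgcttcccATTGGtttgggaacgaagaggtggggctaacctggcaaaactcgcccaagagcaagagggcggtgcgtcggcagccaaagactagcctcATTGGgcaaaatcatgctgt
Insig1: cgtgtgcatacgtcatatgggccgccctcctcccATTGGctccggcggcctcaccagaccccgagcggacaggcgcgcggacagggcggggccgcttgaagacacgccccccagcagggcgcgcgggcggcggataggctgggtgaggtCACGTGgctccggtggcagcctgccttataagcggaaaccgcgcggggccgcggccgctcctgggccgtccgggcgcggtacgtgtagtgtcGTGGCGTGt
Hmgcs1: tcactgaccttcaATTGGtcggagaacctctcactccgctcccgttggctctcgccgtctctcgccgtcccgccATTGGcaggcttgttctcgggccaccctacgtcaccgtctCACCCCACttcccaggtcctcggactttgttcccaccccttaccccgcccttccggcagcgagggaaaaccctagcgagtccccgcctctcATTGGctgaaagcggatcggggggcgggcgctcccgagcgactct
Ggps1: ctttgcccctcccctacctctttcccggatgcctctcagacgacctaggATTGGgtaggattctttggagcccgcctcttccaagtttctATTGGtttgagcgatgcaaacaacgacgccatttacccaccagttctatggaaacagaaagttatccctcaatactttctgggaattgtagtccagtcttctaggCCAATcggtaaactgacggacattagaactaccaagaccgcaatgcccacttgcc
They lie at chr8:64733579-64733828 (minus strand), chrX:72918271-72918520 (plus), chr5:28071162-28071411 (plus), chr13:119690101-119690350 (plus) and chr13:14063489-14063738 (minus). In the GENCODE models used for counting, Msmo1 starts at chr8:64733792 and Insig1 at chr5:28071363. Part of each of these windows thus lies inside the GENCODE gene. That part holds the CCAAT matches of Msmo1 and the CACNCCAC match of Insig1. The Msmo1, Hmgcs1 and Ggps1 windows each hold 3 CCAAT matches, Nsdhl holds 2 and Insig1 holds 1. The capitals in Hmgcs1 also cover a CACNCCAC match, and those in Insig1 cover both CACGTG and CACNCCAC. CCAAT was in each window shown. The windows were picked with the results known, and Abcg1, which the siRNA also lowered in vehicle cells, had no window. Whether CCAAT goes with the direction of change was not tested.

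Among the 8 genes from acetyl-CoA to the isoprenoids, the siRNA raised 4 in vehicle cells (Acat2, Hmgcs1, Mvd and Fdps) and lowered Ggps1. Hmgcs1, the HMG-CoA synthase, had 129, 121 and 243 CPM in the scramble vehicle libraries, 339, 288 and 253 with TGF-β, 399, 458 and 608 in the knockdown vehicle libraries and 527, 404 and 439 in those with TGF-β. The knockdown libraries were above all scramble libraries, and within scramble cells the TGF-β libraries were above all vehicle libraries. Fdps, the farnesyl pyrophosphate synthase, had 58.6, 54.4 and 136 CPM in the scramble vehicle libraries, 221, 192 and 176 with TGF-β, 231, 216 and 304 in the knockdown vehicle libraries and 292, 246 and 247 in those with TGF-β. The scramble vehicle libraries of Fdps were below all others, and its scramble TGF-β libraries reached into the knockdown vehicle range. Mvd, which makes isopentenyl pyrophosphate, had 7.58, 7.25 and 15.5 CPM in the scramble vehicle libraries, 23.7, 17.4 and 16.2 with TGF-β, 31.7, 28.6 and 50.3 in the knockdown vehicle libraries and 33, 26.9 and 33.6 in those with TGF-β. Its lowest knockdown library was above its highest scramble library. Acat2, the cytosolic thiolase that joins acetyl-CoA units at the entry of the route, had 24.5, 24.5 and 49.3 CPM in the scramble vehicle libraries, 87.3, 73.7 and 68.8 with TGF-β, 59.9, 59.5 and 91.5 in the knockdown vehicle libraries and 69.2, 60.7 and 69.6 in those with TGF-β. For Acat2 the scramble vehicle libraries stood below all others, and the remaining groups overlapped.

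By edgeR's quasi-likelihood test the siRNA raised Hmgcs1 in vehicle cells by 1.57 (SE 0.257, adjusted p = 0.00063), Mvd by 1.87 (SE 0.302, adjusted p = 0.000581), Fdps by 1.60 (SE 0.296, adjusted p = 0.00143) and Acat2 by 1.10 (SE 0.258, adjusted p = 0.00586). The first 3 of these calls held in all 19 alternatives, and that of Acat2 was lost without scramble vehicle replicate 1 or 2 or knockdown vehicle replicate 3 (adjusted p up to 0.029). TGF-β raised Fdps by 1.25 (SE 0.293, adjusted p = 0.00792) and Acat2 by 1.23 (SE 0.259, adjusted p = 0.00445) in scramble cells. The call of Fdps was lost without scramble vehicle replicate 1 or 2, any scramble TGF-β library, knockdown vehicle replicate 1 or 2 or knockdown TGF-β replicate 1 or 2, and that of Acat2 without scramble vehicle replicate 1 or 2 or any scramble TGF-β library (adjusted p up to 0.037 and 0.0229). In knockdown cells the TGF-β fold changes of the same genes were 0.07 (SE 0.287, adjusted p = 0.899) and -0.08 (SE 0.252, adjusted p = 0.852), neither called. Hmgcs1 and Mvd had TGF-β fold changes of 0.84 and 0.92 in scramble cells that were not called, and that were called with the replicate block, by DESeq2 and without scramble vehicle replicate 3.

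Ggps1, which makes the geranylgeranyl group used to anchor proteins in membranes, went the other way. It had 58.2, 62.6 and 59.1 CPM in the scramble vehicle libraries, 57.4, 55.7 and 56.4 with TGF-β, 45.7, 44.6 and 40.1 in the knockdown vehicle libraries and 47.1, 43.4 and 45 in those with TGF-β. The knockdown libraries, at 40.1 to 47.1 CPM, all lay below the scramble libraries, at 55.7 to 62.6 CPM, and scramble vehicle replicate 3 was not apart. Ggps1 fell with the siRNA by 0.47 in vehicle cells (SE 0.0637, adjusted p = 0.000196 by edgeR) and by 0.32 under TGF-β (SE 0.0634, adjusted p = 0.00212). The call in vehicle cells held in all 19 alternatives. Under TGF-β it was lost with an offset for transcript length (adjusted p = 0.662, the highest of a range from 6.18e-06 over the 19 alternatives) and without knockdown TGF-β replicate 2. An overlapping gene, Arid4b, had more reads than Ggps1, and how Salmon divided any shared reads was not tested.

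The other 3 genes of this group were never called. They were the mevalonate kinase Mvk, the phosphomevalonate kinase Pmvk and the isopentenyl diphosphate isomerase Idi1. Their siRNA fold changes in vehicle cells were 0.46, 0.90 and 1.29, and their adjusted p by edgeR ran from 0.0145 to 0.124. Idi1 had 41.8, 44.7 and 118 CPM in the scramble vehicle libraries, 139, 119 and 112 with TGF-β, 123, 147 and 229 in the knockdown vehicle libraries and 170.3, 137 and 150.5 in those with TGF-β. Its scramble vehicle replicate 3 was 2.72 times the mean of the other pair, and the SE of its fold changes, 0.35 to 0.36, was the largest of the group for each comparison. Idi1 was called higher with the siRNA in vehicle cells with the replicate block.

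Of the 11 enzymes from squalene formation to cholesterol, the siRNA raised 6 in vehicle cells and lowered none. Beside Msmo1 and Nsdhl these were Lss, Tm7sf2, Ebp and Dhcr7. Dhcr7, the reductase of the last step to cholesterol, had 19.7, 20.0 and 36.1 CPM in the scramble vehicle libraries, 55.5, 47.8 and 41.4 with TGF-β, 60.3, 57 and 93.7 in the knockdown vehicle libraries and 79.5, 64.3 and 65 in those with TGF-β. All knockdown libraries were above all scramble libraries for Dhcr7. Ebp, the sterol isomerase, had 18.7, 18.4 and 24.1 CPM in the scramble vehicle libraries, 31.4, 29.3 and 30.3 with TGF-β, 33, 34 and 37.8 in the knockdown vehicle libraries and 37.4, 34.4 and 35.1 in those with TGF-β. The steps between its groups were small beside those of Msmo1 but so was the spread, and its vehicle groups did not overlap. Tm7sf2, a sterol C14 reductase expressed at low counts, had 5.47, 4.34 and 11.6 CPM in the scramble vehicle libraries, 12.3, 10.8 and 8.54 with TGF-β, 16.8, 16.1 and 20.5 in the knockdown vehicle libraries and 14.3, 14.1 and 9.54 in those with TGF-β. Lss, the lanosterol synthase that closes the sterol ring, had 24.7, 27.9 and 52 CPM in the scramble vehicle libraries, 74.8, 63 and 56.5 with TGF-β, 58.8, 60.7 and 81.9 in the knockdown vehicle libraries and 80.2, 73.5 and 67.8 in those with TGF-β. For both Tm7sf2 and Lss the vehicle groups did not overlap, and the TGF-β groups did.

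In edgeR's quasi-likelihood test the siRNA raised Dhcr7 by 1.48 (SE 0.252, adjusted p = 0.000825), Ebp by 0.78 (SE 0.102, adjusted p = 0.000147), Tm7sf2 by 1.32 (SE 0.312, adjusted p = 0.00619) and Lss by 0.95 (SE 0.244, adjusted p = 0.00984) in vehicle cells. Dhcr7 and Ebp kept their calls in all 19 alternatives. The call of Lss sat at the threshold and was lost in 15 of them, among them every removal of 1 library other than scramble vehicle replicate 3, with adjusted p up to 0.0446. That of Tm7sf2 was lost without scramble vehicle replicate 1 or 2, scramble TGF-β replicate 2 or any knockdown vehicle library, with adjusted p up to 0.0308. Transcripts annotated as protein coding carried between 23.2% and 38.6% of the TPM of Lss and between 55.4% and 94.1% of that of Tm7sf2, so these gene sums hold much RNA that is not annotated as coding. The share was between 59.1% and 71.3% for Srebf1, 63.5% and 94.2% for Scap, 63.6% and 86.5% for Msmo1 and 68.9% and 99.1% for Insig2.

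TGF-β raised Cyp51 and Ebp in this group in scramble cells. Cyp51, the lanosterol demethylase, had 67.5, 72.9 and 152 CPM in the scramble vehicle libraries, 245, 219.8 and 220.4 with TGF-β, 149, 157 and 191 in the knockdown vehicle libraries and 288, 254 and 266 in those with TGF-β. Within each siRNA the TGF-β libraries were above the vehicle libraries, without overlap. Cyp51 rose with TGF-β by 1.23 (SE 0.251, adjusted p = 0.00362 by edgeR) in scramble cells, and in knockdown cells its fold change was 0.70 (SE 0.247, adjusted p = 0.0546), which was not called. Without scramble vehicle replicate 3 the knockdown comparison was called as well by edgeR (adjusted p = 0.000631, the lowest of a range up to 0.157 over the 19 alternatives). That library is not part of this comparison, whose largest fold change over the 33 genes was 0.699 with or without it. It bears on the p-value through the estimate of spread, which the 4 groups share in 1 fit. Ebp rose with TGF-β by 0.57 (SE 0.102, adjusted p = 0.00172 by edgeR) in scramble cells and had a fold change of 0.03 (SE 0.0995, adjusted p = 0.871) in knockdown cells. The TGF-β call of Cyp51 was lost without scramble vehicle replicate 1 or 2 or any scramble TGF-β library (adjusted p up to 0.0175), and that of Ebp without scramble vehicle replicate 1 or with the length offset (up to 0.0516).

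The remaining 4 enzymes were never called. Fdft1, the squalene synthase, and Sqle, the squalene epoxidase, had siRNA fold changes in vehicle cells of 0.88 and 0.85 and TGF-β fold changes in scramble cells of 0.76 and 0.85. All 4 of these values were called with the replicate block. Sc5d, the lathosterol desaturase, had fold changes of 0.53 and 0.47 in the same comparisons, and its 3 scramble vehicle values were 87.5, 82.7 and 182 CPM. Hsd17b7, a ketoreductase of the C4 demethylation complex, differed in pattern from its partners Msmo1 and Nsdhl. It had 61.1, 44 and 85.3 CPM in the scramble vehicle libraries, 100.2, 91.1 and 86.7 with TGF-β, 47.5, 50.1 and 71 in the knockdown vehicle libraries and 70.6, 55 and 64.6 in those with TGF-β. Its highest group was scramble TGF-β, and its siRNA fold changes were -0.17 (SE 0.215, adjusted p = 0.58) in vehicle cells and -0.55 (SE 0.215, adjusted p = 0.0686) under TGF-β, by edgeR. Neither was called, so the values describe these libraries only.

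**Figure D3:**
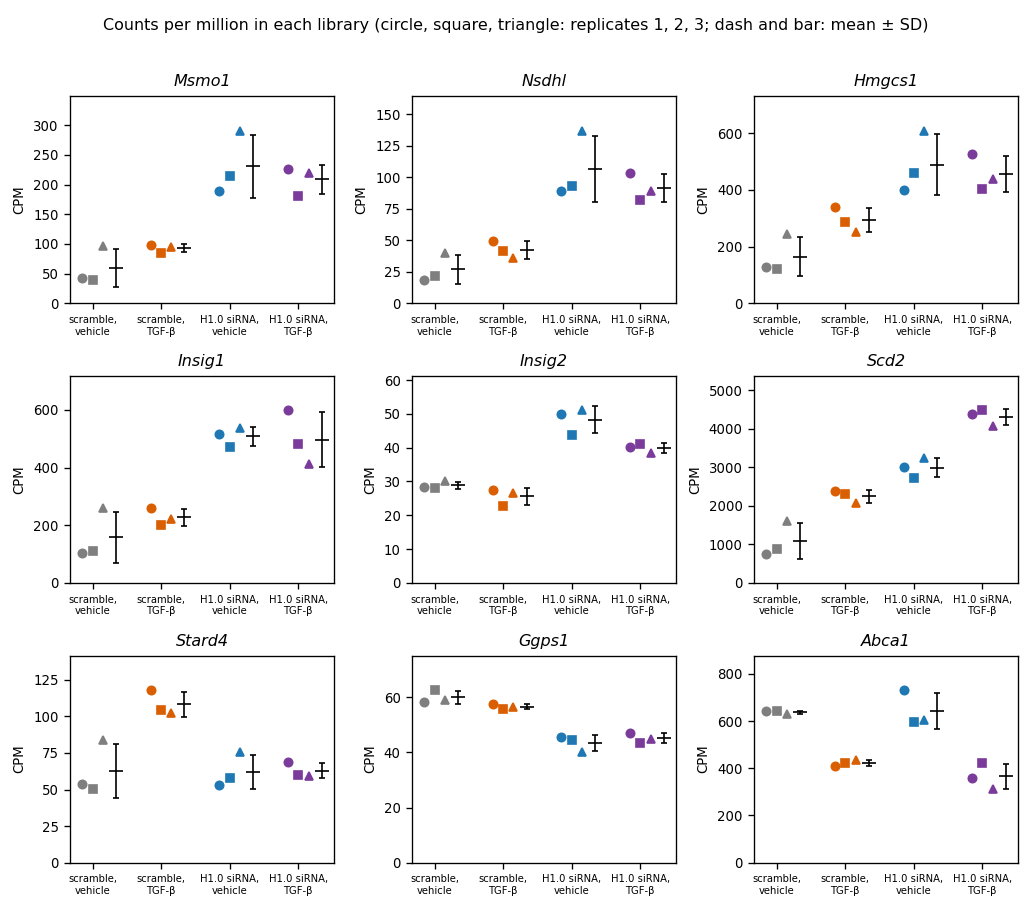
CPM (vertical axis, from 0) in each library of the 4 groups for 9 of the genes, with replicates 1, 2 and 3 as circles, squares and triangles and the mean with its SD (n = 3) as a dash and bar. Msmo1, Nsdhl, Hmgcs1 and Insig1 are highest after the siRNA, Stard4 is highest in scramble TGF-β cells, Ggps1 is lower in all knockdown libraries, and Abca1 is lower in all TGF-β libraries.

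In the SREBP machinery the siRNA raised 3 of 5 genes in vehicle cells and TGF-β changed none in scramble cells. Insig1, the sterol sensor that retains SCAP and is itself an SREBP target, had 105, 111 and 260.0 CPM in the scramble vehicle libraries, 259, 202 and 221 with TGF-β, 518, 473 and 537 in the knockdown vehicle libraries and 598, 481 and 412 in those with TGF-β. All knockdown libraries were above all scramble libraries, with the lowest at 412 and the highest scramble library at 260.0 CPM. Insig2, its relative that does not depend on SREBP in the same way, had 28.5, 28.1 and 30.0 CPM in the scramble vehicle libraries, 27.5, 22.8 and 26.5 with TGF-β, 50.0, 43.7 and 51 in the knockdown vehicle libraries and 40.3, 41.2 and 38.4 in those with TGF-β. Here too the knockdown libraries, 38.4 to 51.0 CPM, lay above the scramble libraries, 22.8 to 30.0 CPM, and scramble vehicle replicate 3 was within its group. Srebf1, the gene of SREBP-1, had 123, 125 and 137 CPM in the scramble vehicle libraries, 212, 180.2 and 169 with TGF-β, 289, 216 and 206 in the knockdown vehicle libraries and 228, 236 and 155 in those with TGF-β. The scramble vehicle libraries of Srebf1 were tight, from 123 to 137 CPM, and below all 9 others.

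Insig1 rose with the siRNA in vehicle cells by 1.68 (SE 0.298, adjusted p = 0.00106 by edgeR), and under TGF-β its fold change was 1.13 (SE 0.293, adjusted p = 0.0106), just short of the threshold and called with the replicate block. Insig2 rose by 0.74 (SE 0.0836, adjusted p = 5.48e-05 by edgeR) in vehicle cells and by 0.64 (SE 0.0837, adjusted p = 0.000135) under TGF-β. The latter was the only one of the 6 calls under TGF-β that held in all 19 alternatives, and the former was lost with the length offset alone (adjusted p = 0.016, the highest of a range from 1.1e-13). Srebf1 rose with the siRNA in vehicle cells by 0.88 (SE 0.169, adjusted p = 0.00174 by edgeR) in all 19 alternatives, and under TGF-β its fold change was 0.14 (SE 0.167, adjusted p = 0.563). Its TGF-β fold change in scramble cells was 0.54, not called, but called with the replicate block and by DESeq2.

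Srebf2, the gene of SREBP-2, and Scap, the escort, were not called. Srebf2 had means of 144 ± 20.6, 189 ± 17.4, 179 ± 9.15 and 186 ± 16.2 CPM (SD, n = 3) in scramble vehicle, scramble TGF-β, knockdown vehicle and knockdown TGF-β cells. Its fold changes were 0.39 for TGF-β in scramble cells, which was called with the block, and 0.31 for the siRNA in vehicle cells. Scap had means of 71.5 ± 5.93, 62.4 ± 3.63, 84.4 ± 3.99 and 67.1 ± 10.3 CPM in the same order. Scap had a fold change of -0.33 (SE 0.106, adjusted p = 0.0368) with TGF-β in knockdown cells by edgeR, which was called as lower with the block.

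The siRNA raised 3 of the 6 enzymes of fatty acid synthesis in vehicle cells, Acly, Fasn and Scd2. Acly, the ATP citrate lyase that supplies cytosolic acetyl-CoA, had 128, 135 and 202 CPM in the scramble vehicle libraries, 258, 232 and 222 with TGF-β, 254, 249.6 and 412 in the knockdown vehicle libraries and 354, 311 and 348 in those with TGF-β. Fasn, the fatty acid synthase, had 250.2, 235 and 383 CPM in the scramble vehicle libraries, 566, 488 and 478 with TGF-β, 528, 466 and 608 in the knockdown vehicle libraries and 598, 564 and 552 in those with TGF-β. In both genes the knockdown vehicle libraries lay above the scramble vehicle libraries. Scd2, a stearoyl-CoA desaturase, had 756, 879 and 1619 CPM in the scramble vehicle libraries, 2387, 2308 and 2066 with TGF-β, 3017, 2735 and 3236 in the knockdown vehicle libraries and 4384, 4482 and 4073 in those with TGF-β. Its 4 groups did not overlap and stood in the order scramble vehicle, scramble TGF-β, knockdown vehicle and knockdown TGF-β, the only gene of this group with no overlap between any groups. Acaca, the acetyl-CoA carboxylase that makes malonyl-CoA, had 99.1, 104 and 155 CPM in the scramble vehicle libraries, 192, 196 and 200.0 with TGF-β, 152, 149 and 171 in the knockdown vehicle libraries and 184, 178 and 193 in those with TGF-β. Its scramble vehicle replicates 1 and 2 stood low, and its 6 TGF-β libraries all lay above its 6 vehicle libraries.

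Scd2 rose with the siRNA by 1.47 (SE 0.228, adjusted p = 0.000453 by edgeR) in vehicle cells and by 0.94 (SE 0.225, adjusted p = 0.0069) under TGF-β, and with TGF-β by 1.05 (SE 0.226, adjusted p = 0.00475) in scramble cells. The first call held in all 19 alternatives. The call under TGF-β was lost without knockdown vehicle replicate 1 or 2 or any TGF-β library, and the TGF-β call without scramble vehicle replicate 1 or 2 or any scramble TGF-β library (adjusted p up to 0.0281 and 0.024). In edgeR's test Fasn rose with the siRNA in vehicle cells by 0.89 (SE 0.167, adjusted p = 0.00162) in all 19 alternatives, and with TGF-β in scramble cells by 0.82 (SE 0.167, adjusted p = 0.00362). Acly rose with the siRNA in vehicle cells by 0.98 (SE 0.207, adjusted p = 0.00315 by edgeR), a call lost without scramble vehicle replicate 1 or 2 or knockdown vehicle replicate 3 (adjusted p up to 0.0177). Acaca rose with TGF-β by 0.71 (SE 0.14, adjusted p = 0.00292 by edgeR) in scramble cells. The TGF-β calls of Fasn and Acaca were lost without scramble vehicle replicate 1 or 2, that of Fasn also without scramble TGF-β replicate 1 and that of Acaca without scramble TGF-β replicate 2 or 3 (adjusted p up to 0.0197 and 0.0154).

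Scd1 and Elovl6 were not called. Scd1, the closest relative of Scd2, had 144, 148 and 418 CPM in the scramble vehicle libraries, 398, 351 and 420.3 with TGF-β, 512, 456 and 652 in the knockdown vehicle libraries and 609, 616 and 698 in those with TGF-β. Its scramble vehicle replicate 3, at 418 CPM, was close to the scramble TGF-β libraries, while replicates 1 and 2 were at 144 and 148 CPM, and the fold change of the siRNA in vehicle cells was 1.19 (SE 0.34, adjusted p = 0.0172 by edgeR). It was called with the replicate block. Elovl6, the elongase from palmitate to stearate, had siRNA and TGF-β fold changes of 0.52 in vehicle cells and 0.81 in scramble cells.

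Each gene of sterol transport had its own pattern. Stard4, which carries cholesterol between membranes inside the cell, had 53.8, 50.5 and 83.9 CPM in the scramble vehicle libraries, 118, 104 and 102 with TGF-β, 53.4, 57.9 and 75.4 in the knockdown vehicle libraries and 68.8, 60.2 and 59.5 in those with TGF-β. The scramble TGF-β libraries were above all others, and the remaining groups overlapped. Stard4 rose with TGF-β in scramble cells by 0.79 (SE 0.183, adjusted p = 0.00736 by edgeR), had a fold change of 0.01 (SE 0.181, adjusted p = 0.971) in knockdown cells, and fell with the siRNA under TGF-β by 0.78 (SE 0.182, adjusted p = 0.00566). In vehicle cells its siRNA fold change was -0.01 (SE 0.182, adjusted p = 0.978). Both calls were lost without any 1 of the scramble TGF-β libraries. The TGF-β call was also lost without scramble vehicle replicate 1 or 2, knockdown vehicle replicate 2 or knockdown TGF-β replicate 1 or 2, and the siRNA call without any knockdown TGF-β library (adjusted p up to 0.037 and 0.0233).

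Abca1, the exporter that hands cholesterol to apolipoprotein A-I, had 642, 640.4 and 631 CPM in the scramble vehicle libraries, 409.9, 423 and 436 with TGF-β, 731, 594 and 604 in the knockdown vehicle libraries and 360.2, 421 and 314 in those with TGF-β. The 6 TGF-β libraries, at 314 to 436 CPM, all lay below the 6 vehicle libraries, at 594 to 731 CPM, with either siRNA. Abca1 fell with TGF-β by 0.59 in scramble cells (SE 0.108, adjusted p = 0.00194 by edgeR) and by 0.82 in knockdown cells (SE 0.108, adjusted p = 0.000338). It was the only one of the 33 genes that TGF-β changed in knockdown cells, and both calls held in all 19 alternatives. Macrophages also express Abca1, and 12 macrophage genes summed to 971 to 1072 CPM in scramble vehicle, 717 to 785 in scramble TGF-β, 871 to 930 in knockdown vehicle and 485 to 738 CPM in knockdown TGF-β libraries. Lyz2 was the largest part of these sums, at 228.8 to 586.4 CPM. After scramble siRNA, TGF-β lowered 3 of the 12, where 7.94% of all genes were called lower. After H1.0 siRNA it lowered 5, where 6.6% were, and it raised none with either siRNA. Of the 12 fold changes, 11 were below 0 with either siRNA, where 50.8% of all genes were. Csf1r had 62.1, 48.6 and 48.7 CPM in scramble vehicle and 64.5, 51.9 and 63.5 CPM in scramble TGF-β libraries. The part of macrophages in the fall of Abca1 was not tested.

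Abcg1, the exporter that loads cholesterol onto HDL, had 64.1, 78.3 and 84.1 CPM in the scramble vehicle libraries, 75.1, 68.5 and 83.3 with TGF-β, 57.3, 42.5 and 43.8 in the knockdown vehicle libraries and 61.8, 61.7 and 67.4 in those with TGF-β. It fell with the siRNA in vehicle cells by 0.66 (SE 0.129, adjusted p = 0.00206 by edgeR), and its vehicle groups did not overlap. Under TGF-β the siRNA fold change was -0.25 (SE 0.128, adjusted p = 0.161). The call was lost with the length offset and without knockdown vehicle replicate 3 (adjusted p up to 0.0279).

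The response to TGF-β was next set side by side by replicate number, because same-numbered libraries deviated together over 5000 genes. The 33 genes did not do so across TGF-β. Their median ratio of replicate 3 to the mean of its group mates was 1.86 in scramble and 1.35 in knockdown vehicle cells. With TGF-β it was 0.906 in scramble and 0.943 in knockdown cells. In scramble cells the median log2 ratio of TGF-β to vehicle over the 33 genes was 1.22 in replicate 1 and 1.05 in replicate 2, with 29 and 28 genes above 0. In replicate 3 it was 0.06, with 19 genes above 0. The median over the 13064 genes with at least 1 CPM was between -0.003 and 0.02 in these pairs. Scramble TGF-β replicate 3 was close to the other TGF-β replicates, with a median ratio to them of 0.906, and it was the vehicle library of this pair that stood high. In knockdown cells the medians were 0.26, 0.12 and -0.38, with 28, 21 and 6 genes above 0. Over the 13064 genes they were 0.016, 0.015 and -0.03.

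The siRNA comparison in vehicle cells held its sign in every replicate number. Its medians were 1.10, 0.99 and 0.65, with 29, 30 and 28 of 33 genes above 0. Under TGF-β they were 0.16, 0.21 and 0.21, with 21, 24 and 22 genes above 0. Over the 13064 genes with at least 1 CPM the medians were 0.023, 0.016 and 0.064 in vehicle cells. Under TGF-β they were 0.056, 0.059 and 0.029. The share of all genes above 0 in each pair was not counted.

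**Figure D4:**
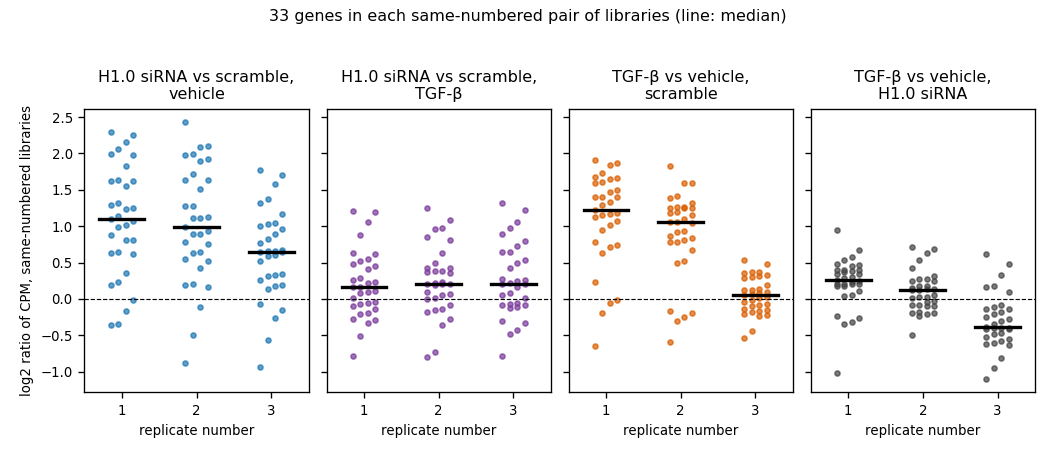
Each point is 1 of the 33 genes in 1 same-numbered pair of libraries, placed by the log2 ratio of its CPM (vertical axis), with the median as a line. For TGF-β in scramble cells the median is 1.22 and 1.05 in replicates 1 and 2 and 0.06 in replicate 3, and for the siRNA in vehicle cells it is above 0.6 in all 3.

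The number of calls moved with this library. Without scramble vehicle replicate 3, TGF-β raised 27 of the 33 genes in scramble cells, where 10.0% of all genes were called higher, and the siRNA raised 26 in vehicle cells, where 11.6% were. Without scramble vehicle replicate 1 the TGF-β count was 0 (5.8% of all genes were called higher), and without replicate 2 it was 1 (6.02%). Without any 1 scramble TGF-β library it was 2 (6.44% to 7.53%). The siRNA count was 12 without scramble vehicle replicate 1 or 2 (9.79% and 9.7%). A fit with the replicate number as block had 17 genes raised by TGF-β in scramble cells (15.4% of all genes were called higher) and 22 raised by the siRNA in vehicle cells (17.4%). The 9 genes added for TGF-β were Hmgcs1, Mvd, Fdft1, Sqle, Lss, Dhcr7, Srebf1, Srebf2 and Acly. The 6 added for the siRNA were Idi1, Fdft1, Sqle, Cyp51, Acaca and Scd1. With the third scramble vehicle library left out, the log2 fold change of the siRNA in vehicle cells was 2.49 for Msmo1, 2.39 for Nsdhl, 2.31 for Mvd, 2.24 for Insig1, 2.15 for Fdps and 1.97 for Hmgcs1. It was 1.87 for Scd2, 1.86 for Tm7sf2, 1.83 for Dhcr7, 1.52 for Acat2, 1.35 for Lss and 1.22 for Acly. The others were Fasn at 1.14, Srebf1 at 0.93, Ebp at 0.91, Insig2 at 0.77, Abcg1 at -0.57 and Ggps1 at -0.48. In the same setting the TGF-β fold change in scramble cells was 1.80 for Fdps, 1.70 for Cyp51, 1.65 for Acat2, 1.46 for Scd2, 1.07 for Fasn, 1.05 for Stard4, 0.95 for Acaca, 0.71 for Ebp and -0.60 for Abca1. All of these were called by edgeR, so no call that rests on this group was lost without that library. Of the 16 genes the siRNA raised, 11 were called in all 19 alternatives, and of the 8 that TGF-β raised none was.

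Under TGF-β the count of genes higher after the siRNA was 4. It fell to 1 without any 1 of the scramble or knockdown TGF-β libraries (9.02% to 11.6% of all genes were called higher). It fell to 2 without knockdown vehicle replicate 1 or 2 (12.1% and 12.5%) and was 5 with the block (17.6%), which added Insig1. The count of genes lower was 1 without any 1 scramble TGF-β library or knockdown TGF-β replicate 1 or 3 (8.61% to 9.75% of all genes). It was 0 without knockdown TGF-β replicate 2 (9.39%). In knockdown cells the count of genes that TGF-β raised was 2 without scramble vehicle replicate 3 (Cyp51 and Scd2, with 9.35% of all genes called higher). It was 1 without knockdown vehicle replicate 1 (5.25%). Scramble vehicle replicate 3 is not part of that comparison and bears on it through the shared estimate of spread.

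Whether the response to TGF-β differed between knockdown and scramble cells was tested as an interaction. No member passed, where 0.0333% of all genes tested were called positive and 0.0111% negative by edgeR. The log2 difference, TGF-β response in knockdown cells minus that in scramble cells, was below 0 for 31 of the 33 genes, and the exceptions were Ggps1 at 0.14 and Abcg1 at 0.41. Over all genes tested 47.6% were below 0, and the medians were -0.57 for the 33 genes and 0.02 for all. An unadjusted p under 0.05 was found for 16 of the 33 genes by edgeR, where 11.9% of all genes had one, and for 17 by DESeq2. DESeq2 also called 0 of the 33, where it called 0.61% of all genes positive and 0.716% negative. The share of all genes at the unadjusted cut is given for the main edgeR fit only, so the other counts have no such background. Without scramble vehicle replicate 3 the median over the 33 genes was -1.03 and 28 had an unadjusted p under 0.05 by edgeR, against 9 without scramble vehicle replicate 1 or 2, 10 without scramble TGF-β replicate 1 and 6 without knockdown vehicle replicate 3. The widest differences were those of Acat2 at -1.31 (SE 0.361, adjusted p = 0.157 by edgeR), Fdps at -1.18 (SE 0.409, adjusted p = 0.27) and Mvd at -1.16 (SE 0.414, adjusted p = 0.286). Without scramble vehicle replicate 3, 1 gene passed, Fdps, with an adjusted p of 0.00958, the lowest of a range up to 0.457 over the 19 alternatives. The scramble vehicle libraries enter every one of these differences, and a p that misses the threshold does not show that the responses were alike.

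Levels between genes were compared per transcript length, in TPM. In scramble vehicle cells the mean TPM ran from 8.8 for Elovl6 to 406 for Scd2. Scd2 also led the other groups, with means of 812 TPM in scramble TGF-β, 1096 TPM in knockdown vehicle and 1483 TPM in knockdown TGF-β cells, and Fdps was next in each of the 4. In the cholesterol route Fdps, at 146 TPM, and Hmgcs1, at 109.5 TPM, stood above the kinases Mvk and Pmvk, at 29.2 and 23.6 TPM, in scramble vehicle cells. Msmo1 and Nsdhl had mean TPM values of 65.3 and 26.2 there and 251 and 99.8 in knockdown vehicle cells. Among the transporters Abca1 was the highest in all groups, with a mean of 124 TPM in scramble vehicle and 67 TPM in knockdown TGF-β cells.

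**Figure D5:**
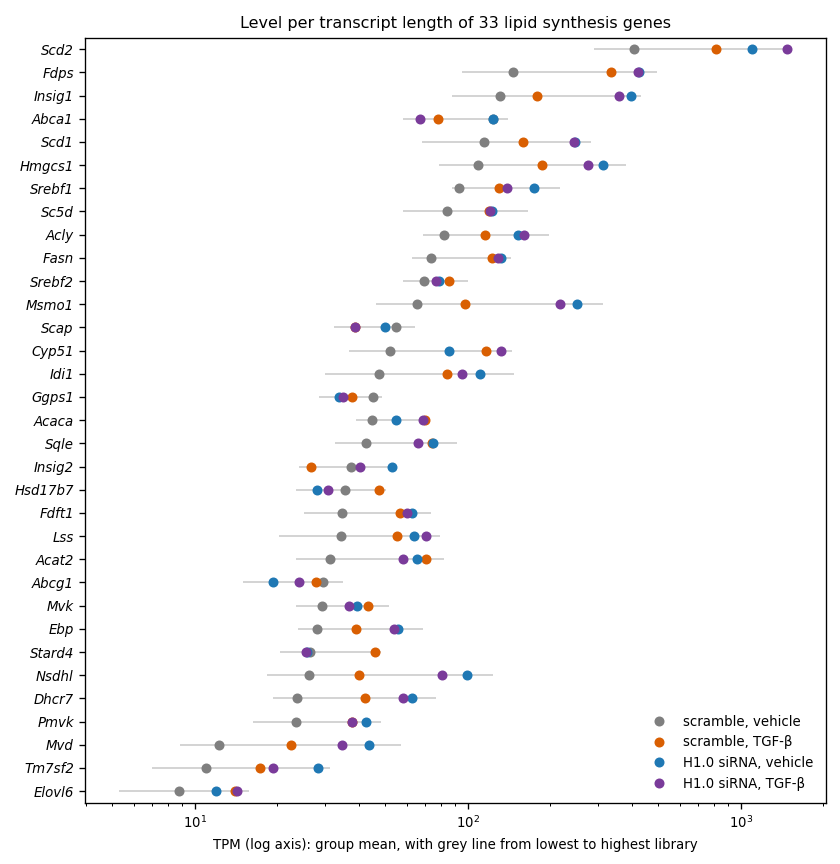
Mean TPM of each gene in the 4 groups on a log axis, ordered by the mean in scramble vehicle cells, with a grey line from the lowest to the highest of the 12 libraries. Scd2 is the highest gene in every group, and the points of Msmo1 and Nsdhl after the siRNA stand apart from those of scramble cells.

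A list of 53 further genes of sterol uptake, sterol sensing, oxysterols, fatty acid modification and isoprenoid branches was read in the same fit, and all 53 were measured. The siRNA raised 15 and lowered 1 of them in vehicle cells (13.4% and 11.2% of all genes tested), and raised 11 and lowered 1 under TGF-β (13.0% and 11.3% of all genes). TGF-β raised 13 and lowered 7 in scramble cells (10.5% and 7.94% of all genes), and raised 5 and lowered 2 in knockdown cells (9.14% and 6.6% of all genes). Their median log2 fold changes in these comparisons were 0.31, 0.18, 0.07 and -0.02.

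Outside the 33 genes, the siRNA calls with the smallest adjusted p included those of Erlin2, Elovl5 and Lbr. Erlin2, a protein of sterol-rich domains of the endoplasmic reticulum, rose by 0.78 (SE 0.0674, adjusted p = 9.34e-06 by edgeR) in vehicle cells and 1.04 (SE 0.0677, adjusted p = 1.71e-06) under TGF-β. Elovl5, which elongates polyunsaturated fatty acids, rose by 1.50 (SE 0.138, adjusted p = 1.41e-05 by edgeR) and 1.03 (SE 0.137, adjusted p = 0.000153). Lbr, a nuclear envelope protein that is also a sterol C14 reductase, rose by 0.99 (SE 0.0936, adjusted p = 1.68e-05 by edgeR) in vehicle cells. Ch25h, which makes the oxysterol 25-hydroxycholesterol, fell in vehicle cells, with a log2 fold change of -1.43 (SE 0.197, adjusted p = 0.000202 by edgeR).

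With TGF-β, Npc1, which moves cholesterol out of lysosomes, rose in scramble cells by 0.56 (SE 0.069, adjusted p = 0.000219 by edgeR) and was lower with the siRNA under TGF-β, with a log2 fold change of -0.58 (SE 0.0689, adjusted p = 6.62e-05). Lbr rose with TGF-β in scramble cells by 0.63 (SE 0.0937, adjusted p = 0.0006 by edgeR). Lipa, the lysosomal acid lipase, fell with TGF-β in both backgrounds, with log2 fold changes of -0.78 (SE 0.0758, adjusted p = 7.04e-05 by edgeR) in scramble and -0.82 (SE 0.0755, adjusted p = 3.64e-05) in knockdown cells. Acacb, the acetyl-CoA carboxylase of mitochondria, fell as well, by edgeR, with -1.29 (SE 0.16, adjusted p = 0.000223) and -1.21 (SE 0.154, adjusted p = 0.000265). Npc2, the soluble partner of Npc1, fell in scramble cells, with a log2 fold change of -0.47 (SE 0.0721, adjusted p = 0.00071 by edgeR). In knockdown cells TGF-β raised Elovl1, an elongase of very long fatty acids, by 0.38 (SE 0.0699, adjusted p = 0.00229 by edgeR), the acyl-CoA synthetase Acsl4 by 0.88 (SE 0.162, adjusted p = 0.00235) and Fntb, the β subunit of farnesyltransferase, by 0.38 (SE 0.0818, adjusted p = 0.00511).

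Markers of other cell types were read beside these results. Adipocytes make fatty acids, and 4 of 7 adipocyte genes passed the count minimum, with Adipoq between 0 and 0.231 CPM and Plin1 at most 1.15 CPM in any library. The 4 genes summed to 13.8 to 18.8 CPM in scramble vehicle, 3.68 to 3.76 in scramble TGF-β, 6.77 to 9.83 in knockdown vehicle and 1.74 to 3.65 CPM in knockdown TGF-β libraries. Fabp4, which endothelial cells express too, made up most of that sum. The 8 cardiomyocyte genes summed to 66.5 to 98.4 CPM in scramble and 7.28 to 12.9 CPM in knockdown libraries. Tnnt2 made up most of that sum, at 63.2 to 91.0 CPM in scramble and 5.49 to 10.1 CPM in knockdown libraries, and each of the other 7 was at most 3.74 CPM in any library. The 8 endothelial genes summed to 79.7 to 127 CPM in scramble and 56.3 to 69.5 CPM in knockdown libraries. Tek had 35.2 to 78.4 CPM in scramble and 12.4 to 23.5 CPM in knockdown libraries, whereas the levels of Pecam1 and Cdh5 overlapped between them. The 6 mural cell genes summed to 91.1 to 209.5 CPM in scramble vehicle, 97.6 to 217.8 in scramble TGF-β, 42.8 to 74.1 in knockdown vehicle and 42.7 to 88.8 CPM in knockdown TGF-β libraries. In scramble cells 3 of their TGF-β fold changes were above 0 and 3 below. TGF-β raised 1 and lowered 1 there (10.5% and 7.94% of all genes). Notch3 had 66.8 to 162 CPM with vehicle and 17.4 to 37.8 CPM with TGF-β in scramble cells. Cspg4 had 9.19 to 27.3 and 41.6 to 82.9 CPM, and Rgs5 had 6.36 to 15.5 and 24.6 to 58.0 CPM. None of the 6 was called for the siRNA in vehicle cells by edgeR, where 11.2% of all genes were called lower. All 6 fold changes were below 0 with a median of -1.48, where 49.7% of all genes were below 0. Of the 6, 5 had an unadjusted p under 0.05 in edgeR's test, where 44.4% of all genes did. The 4 epicardial genes summed to 11.2 to 18.2 CPM in scramble and 15.5 to 34.4 CPM in knockdown libraries. Their part in the siRNA comparisons was not tested.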

How the data were processed

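RNA-seq of 12 libraries, 3 biological replicates in each of 4 groups, was analysed. The authors removed ribosomal RNA, quantified paired-end reads with Salmon and deposited an estimated count and a TPM value per transcript. The submitters' processing notes name Salmon, DESeq2 and mm10. Transcripts were joined to GENCODE M21 genes on GRCm38 by identifier (115973 of 117135, holding 99.54% to 99.60% of reads), and the deposited estimated counts were summed per gene and rounded. Summed TPM was used for levels between genes. Salmon divided reads that fit several genes, so genes that overlap another tested gene (7 of 33: Mvd, Fdps, Ggps1, Fdft1, Cyp51, Tm7sf2 and Srebf1) or have near-identical copies are less certain.

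Genes that summed to 10 counts or more over all 12 libraries were tested by edgeR 4.0.16 (R 4.3.3, quasi-likelihood F test, TMM) with the 4 groups in 1 fit and no covariate, Benjamini-Hochberg adjustment, calls at an adjusted p under 0.01. The SE is the fold change divided by the square root of F. Replicates of a group differed beyond sampling noise in every pair (chi-square per degree of freedom 8.95 to 64.84). Replicate numbers paired the libraries: their deviations from group means, over 5000 genes, correlated by 0.371 to 0.788 in all 18 same-numbered pairs, and all 12 libraries correlated best with their own number. The main fit did not use this pairing, and the fit with the replicate block did. P-values of the main fit measure the spread between these replicates, estimated over the 4 groups together.

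Genes and lists were chosen with earlier results of these data known. All 33 genes are named, with all 12 values for those called at least once. Of 53 further genes of the pathway at most 3 with the smallest adjusted p are named per direction and comparison, and some genes of the pathway are not reported here by name. Motifs were searched on both strands of RefSeq windows. The 19 alternatives were DESeq2 1.42.0, RLE size factors, no count minimum, filterByExpr, a transcript length offset, the replicate block, counts thinned to the smallest library and each library left out in turn. Methods were tested on simulated counts, drawn with no pairing of replicates and no library that stands apart for a set of genes. That test therefore does not cover these features of the data. No column of another sample was found, and ChIP-seq was not analysed here.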

Additional observations from a re-analysis of the deposited data

Results flagged for a closer look

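Acaca, the carboxylase that makes malonyl-CoA, was higher after the siRNA than in scramble cells in all 3 same-numbered pairs with vehicle and lower in all 3 pairs with TGF-β. The interaction, which is the siRNA response under TGF-β minus that in vehicle cells, was -0.48 on the log2 scale with an adjusted p of 0.364 by edgeR, so the difference was not past the threshold. With 3 libraries a group no test for single outlying libraries was run.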

How the results depend on the processing

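With 1 library left out at a time, TGF-β raised 0 to 27 of them in scramble cells and 0 to 2 in knockdown cells, and lowered 1 in each. The siRNA raised 12 to 26 and lowered 1 to 2 in vehicle cells, raised 1 to 6 and lowered 0 to 2 under TGF-β, and the interaction had 0 positive and 0 to 1 negative calls. With the replicate number as a block TGF-β raised 17 in scramble cells and lowered 2 in knockdown cells (Abca1 and Scap), and the siRNA raised 22 in vehicle cells and 5 under TGF-β. The block removed no call that was made without it. DESeq2 gave 15 and 2 for the same TGF-β counts. With the transcript length offset the siRNA lowered 1 gene in vehicle cells (Ggps1) and 1 under TGF-β (Stard4). The other counts stayed within 1.5 times. Over 3135 values of single genes under the 19 alternatives 2960 stayed on their side of the threshold, 103 lost and 72 gained a call, and none that was called changed sign; 58 uncalled values did. No scaling moved the median of all genes by over 0.1. With counts thinned to the smallest total, 164 of 165 values stayed on their side of the threshold, and the exception was the siRNA call of Lss in vehicle cells. A library outside a comparison still bears on its p-values, as the 4 groups share 1 estimate of spread. The cause of these changes was otherwise not tested.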
